A study of Mus musculus with 5 samples.

Results

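The keratins of basal, hillock and luminal cells of the mouse airway epithelium, Krt5, Krt14, Krt15, Krt17, Krt6a, Krt4, Krt13, Krt8, Krt18 and Krt19, were followed through 5 single-cell RNA sequencing libraries of trachea. They were taken by name and are 10 of the 53 keratin genes among the 30907 mouse features of the files. Keratins are the intermediate filament proteins of epithelia, and each filament pairs an acidic type I with a basic type II keratin. Basal cells, the stem cells of the tracheal epithelium, are known for Krt5 with its partners Krt14 and Krt15, luminal secretory and ciliated cells for Krt8, Krt18 and Krt19. Krt4 and Krt13 mark hillock cells, a stratified cell population of the mouse trachea, and Krt6a and Krt17 are known as keratins of wounded epithelium.

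All animals were adult 129 X1/S1 mice. 2 recipients received 2% polidocanol, a detergent that strips the tracheal epithelium, and 5 hours later 6000000 iBCs, basal cells derived from mouse embryonic stem cells. Their tracheas were taken 40 and 56 days after transplantation, 1 recipient a day, and live cells positive for Calcein Blue were sorted by GFP. The positive fraction of each trachea gave the donor-derived library and the negative fraction the endogenous one (n = 2 libraries a group). The control library (n = 1) came from a trachea with neither injury nor transplantation and was sorted on Calcein Blue alone. Both members of a group differ in recipient and in day, and these cannot be told apart. With 1 recipient a day, p-values measure the spread between 2 libraries a group. Donor-derived and endogenous cells of a day shared the injury, the recipient and the trachea, and differed in origin and in the GFP gate.

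After filtering, 6554 cells remained (611 to 1731 a library), with a median of 9999 to 12783 UMIs (unique molecular identifiers, 1 per captured RNA molecule) per cell. Only 0 to 2 barcodes were shared by any pair of libraries. In the control, 192 further barcodes had over 10% human-mapped UMIs and were left out. They carried 26 mouse Krt5 UMIs, 292 of Krt15, 90 of Krt8, 106 of Krt19 and 0 of Krt14, Krt6a and Krt13. Cells were clustered and named without any keratin gene, so no keratin level below entered the names. The basal-like class held 439 and 340 endogenous cells (day 40 and day 56), 728 and 1109 donor-derived cells and 76 control cells. The secretory-like class held 349 and 233, 247 and 397, and 362, and the ciliated-like class 231 and 194, 41 and 117, and 154. Each class consisted of clusters that were mostly donor-derived or mostly endogenous and control. All 15 basal markers were measured, and 14 or 15 of them were detected in each basal-like cluster. Hillock markers gave the second-highest score in basal-like clusters 7 (donor-derived) and 12 (endogenous), and no cluster was named hillock-like at this resolution. At resolution 2.0 a cluster of 127 cells (110 and 15 donor-derived, 2 and 0 endogenous) was named hillock-like, with 3 hillock markers among its top 10 genes. It shared the leading genes Cldn18, Upk3a, Ifit1bl1 and Plat with the unnamed donor-derived cluster 4 described below.

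The type I genes Krt13, Krt15, Krt19, Krt14 and Krt17 lie on the minus strand of chromosome 11 of GRCm38, within the type I cluster, where the annotation has 27 keratin genes between 99232761 and 100269871. Krt13 spans 100117327 to 100121566, Krt15 100131758 to 100135928, and Krt14 100203162 to 100207548. The type II genes Krt6a, Krt5, Krt4 and Krt8 lie on the minus strand of chromosome 15, also among 27 keratin genes. Krt5 spans 101707070 to 101712898 and Krt4 101918535 to 101924735. Krt18 (102028180 to 102032027) is the type I exception. It lies on chromosome 15 on the plus strand, next to Krt8 (101996698 to 102004482). In the last 500 bases of the transcripts, 5.22% of 60-base windows were shared between Krt14 and Krt17, and the other 8 genes shared none with another gene. Krt6a overlaps the antisense gene Gm49428 and Krt8 the opposite-strand gene Gm36026. The strand setting of the counting is not known here, so reads of these pairs may not be separable.

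Promoter sequences in the RefSeq table (GRCm38.p6) matched 5 of the 10 genes, Krt13 with a pair of starts of which the upstream one is used. The 250 bases before the start are shown for a basal keratin, a hillock keratin and the neighbouring luminal pair, because these 3 kinds followed different patterns below. Capitals mark ATAAAAG, which resembles the start-site box of many genes. They also mark the word known for AP-1 factors, which is TGANTCA. Both were searched on both strands, and their matches do not overlap.
Krt5, chr15:101712906-101713155, minus strand: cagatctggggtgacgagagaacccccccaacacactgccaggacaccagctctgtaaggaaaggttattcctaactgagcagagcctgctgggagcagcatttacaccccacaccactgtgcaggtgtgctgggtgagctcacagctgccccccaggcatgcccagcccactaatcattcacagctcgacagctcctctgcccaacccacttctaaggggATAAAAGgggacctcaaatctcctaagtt
Krt13, chr11:100121567-100121816, minus strand: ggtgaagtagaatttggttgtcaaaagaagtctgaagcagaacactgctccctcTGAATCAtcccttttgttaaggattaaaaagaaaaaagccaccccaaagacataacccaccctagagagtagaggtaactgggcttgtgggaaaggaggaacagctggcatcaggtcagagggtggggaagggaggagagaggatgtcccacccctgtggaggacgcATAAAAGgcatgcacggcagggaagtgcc
Krt8, chr15:102004343-102004592, minus strand: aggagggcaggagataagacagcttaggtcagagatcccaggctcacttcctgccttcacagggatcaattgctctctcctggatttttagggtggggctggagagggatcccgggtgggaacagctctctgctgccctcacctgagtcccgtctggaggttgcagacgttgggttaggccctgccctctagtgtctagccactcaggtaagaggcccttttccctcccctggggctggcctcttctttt
Krt18, chr15:102027966-102028215, plus strand: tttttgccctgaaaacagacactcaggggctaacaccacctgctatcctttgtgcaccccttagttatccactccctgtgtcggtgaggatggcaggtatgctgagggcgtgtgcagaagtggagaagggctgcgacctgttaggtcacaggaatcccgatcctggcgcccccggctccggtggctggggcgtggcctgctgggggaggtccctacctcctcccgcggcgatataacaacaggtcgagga
ATAAAAG began at position -29 in both Krt5 and Krt13, counted from the start, and TGANTCA at -196 in Krt13. Neither word occurred in the Krt8 and Krt18 windows, which overlap the start of the GENCODE gene models. Neither occurred in the matched window of Krt14, a further basal keratin, chr11:100206031-100206280, which lies inside its GENCODE gene model and is not shown. Over all 32851 promoters of the table, 4.83% held ATAAAAG and 6.75% held TGANTCA. A match describes the letters only.

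Krt5 was a steady keratin of basal-like cells whatever their origin. Levels are counts summed over the cells of a class in a library, scaled to a common depth (CPM) with trimmed mean of M values (TMM) factors, and are not divided by gene length. Krt5 stood at 1615 and 1391 CPM in endogenous cells (day 40 and day 56), 1646 and 1190 in donor-derived cells and 1587 in the control. The groups overlapped. The log2 fold change, donor-derived over endogenous, was -0.09 ± 0.18 (SE, n = 2 against 2 libraries, adjusted p = 0.873 by edgeR's quasi-likelihood test with Benjamini-Hochberg adjustment over all genes, as in all tests below).

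**Figure D1:**
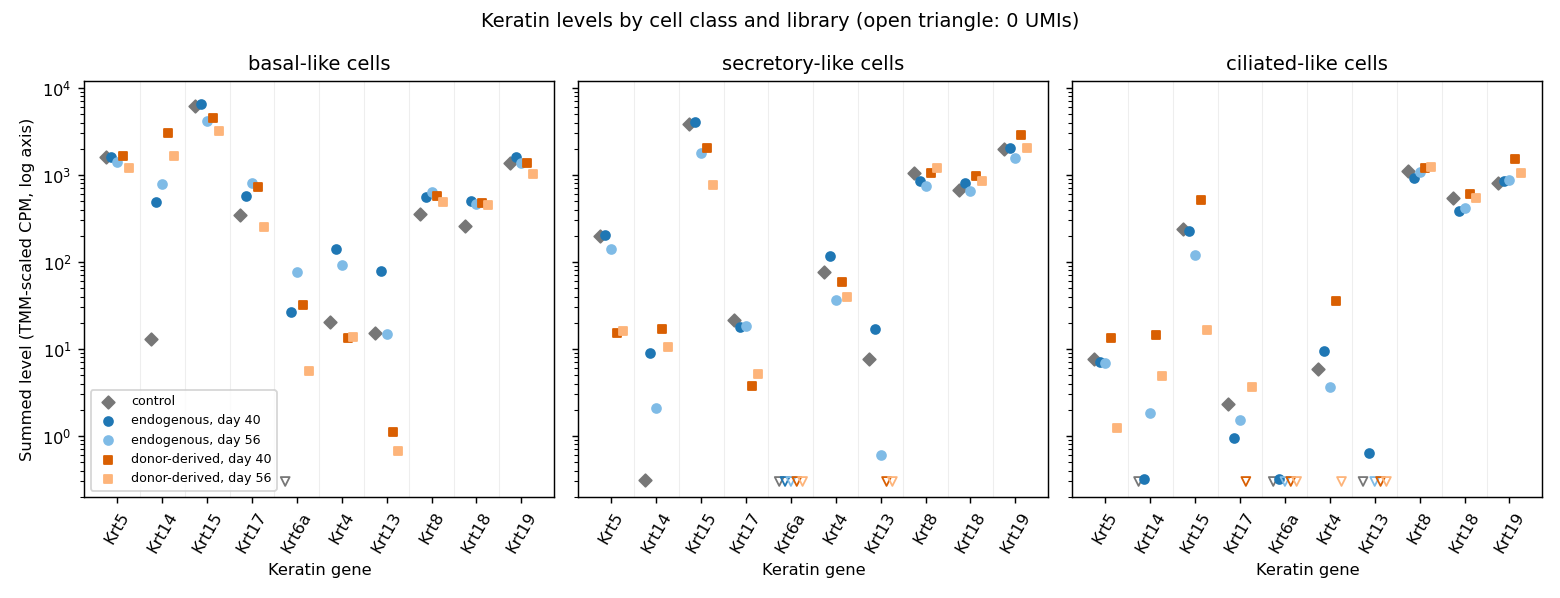
Summed level of each keratin (TMM-scaled CPM, log axis) in cells of the basal-like, secretory-like and ciliated-like classes, 1 point per library, with control as diamonds, endogenous as circles and donor-derived as squares. Krt14 separates the basal-like libraries in the order control, endogenous, donor-derived, while Krt5, Krt8, Krt18 and Krt19 lie close together there.

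Krt15, a type I basal keratin, had the highest count of the 10 in basal-like cells. It stood at 6535 and 4198 CPM in endogenous cells, 4545 and 3202 in donor-derived cells and 6216 in the control. The groups overlapped, and the log2 fold change was -0.47 ± 0.27 (adjusted p = 0.448). Krt17 stood at 578.2 and 818.2 CPM in endogenous cells, 720.1 and 255.1 in donor-derived cells and 343.7 in the control. The donor-derived library of day 56 was the lowest of all 5. The log2 fold change was -0.52 ± 0.58 (adjusted p = 0.733), but without the donor-derived library of day 40 it was -1.45 with an adjusted p of 0.0106.

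Krt14, the other type I partner of Krt5, stood highest in donor-derived, lower in endogenous and lowest in control basal-like cells. It stood at 3045 and 1643 CPM in donor-derived cells and at 491.6 and 781.7 in endogenous cells. In the control it was at 13.08 CPM (11 UMIs over 76 cells, exact 95% Poisson interval 6.53 to 23.4, counting error only). The groups did not overlap, yet the difference between donor-derived and endogenous cells missed the threshold, at a log2 fold change of 1.87 ± 0.41 (adjusted p = 0.0728). It passed with DESeq2 (1.88, adjusted p = 2.31e-06) and without the donor-derived library of day 56 (2.27, adjusted p = 0.00731). The share of basal-like cells with Krt14 followed the same order. Cells were thinned to 5000 UMIs and a gene was counted as present at 2 or more UMIs. Krt14 was present in 83.9% (day 40) and 61.8% (day 56) of donor-derived cells, in 23.8% and 39.3% of endogenous ones and in 1 of 76 control cells (1.32%, exact 95% binomial interval 0.0333 to 7.11, as for all shares here). Without thinning the shares were 88.3% and 64.7%, 28.0% and 45.9%, and 2.63%. With 2 libraries against 2 an exact permutation test of a share cannot go below p = 0.333, so shares were not tested.

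**Figure D2:**
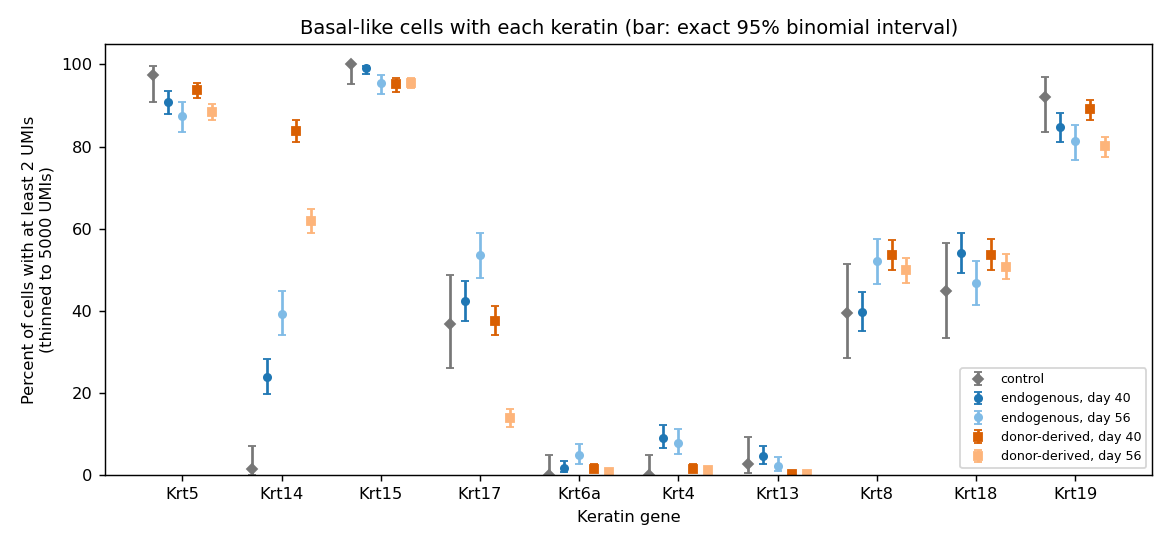
Percent of basal-like cells with at least 2 UMIs of each keratin after thinning to 5000 UMIs, by library, with exact 95% binomial intervals as bars. Krt14 ranges from 1.32% of control cells to 83.9% of donor-derived cells of day 40, while Krt5 and Krt15 are present in at least 87.5% of cells in every library.

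Among basal-like clusters, Krt14 was highest in donor-derived cluster 7 at day 40 and cluster 8 at day 56. Cluster 7, led by Tnc, Cpe and Sfn, held 4982 and 2417 CPM, and cluster 8, led by Cxcl10 and guanylate-binding protein genes, 3425 and 2933. Donor-derived cluster 0, led by Sftpc and Lmo1, was the lowest of the donor-derived clusters, at 991.6 and 938.3 CPM. Cluster 2, led by Abi3bp and Apoe, held both endogenous and control cells and so compares them within 1 cluster. Its Krt14 level was 303 and 527 CPM in endogenous cells and 13.57 in the control. In the same cluster Krt5 was at 1554 and 1429 CPM in endogenous cells and 1647 in the control. Krt17 in cluster 0 was at 29.5 and 42.1 CPM, while donor-derived clusters 7 and 8 held 598 to 1702 CPM. Cluster 0 held 88 donor-derived cells of day 40 and 651 of day 56, and this difference in the mix of clusters moves with the low Krt17 of the day 56 library. Its part in that level was not tested.

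**Figure D3:**
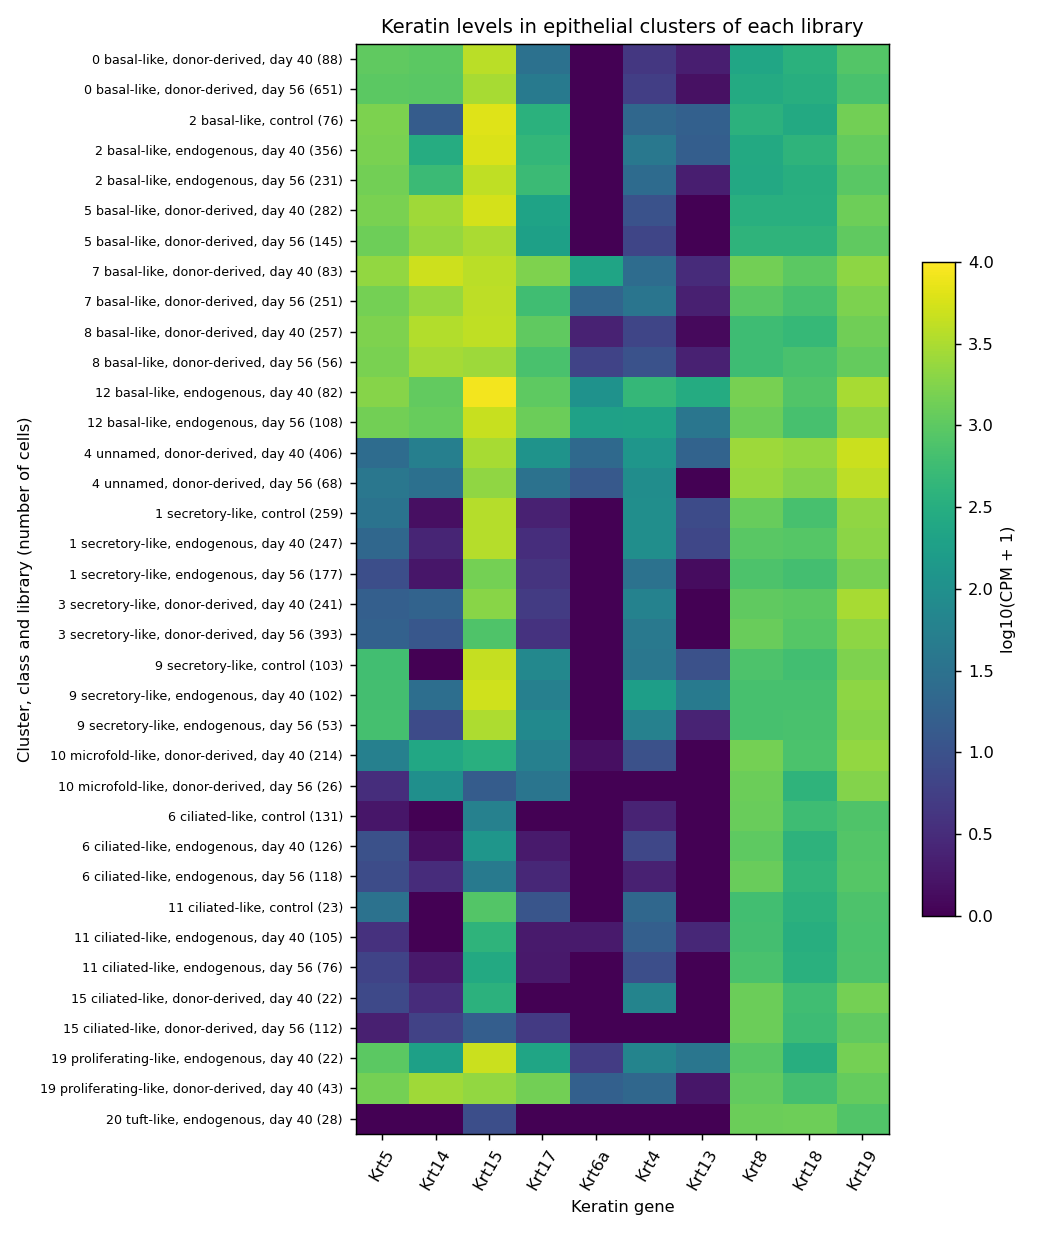
Heat map of log10(CPM + 1) of the 10 keratins in each epithelial cluster of each library with at least 20 cells, with the number of cells in parentheses. Krt6a is seen mainly in basal-like clusters 7 and 12 and in unnamed cluster 4, Krt13 mainly in cluster 12, and Krt5 in secretory-like cluster 9 but scarcely in clusters 1 and 3.

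Krt4, a type II keratin of stratified and hillock epithelium, was the 1 member of 10 that passed the test in basal-like cells, where 9.1% of all 11684 genes tested passed, 2.98% higher and 6.12% lower in donor-derived cells. It stood at 140.3 and 93.4 CPM in endogenous cells, 13.4 and 13.6 in donor-derived cells and 20.2 in the control. The endogenous libraries stood above the other 3. Krt4 fell by 3.12 ± 0.22 on the log2 scale in donor-derived cells (adjusted p = 0.00102). Much of the endogenous Krt4 lay in cluster 12 (led by S100g, Alox15 and Calcb), with 464.7 and 202.3 CPM, a cluster with 82 and 108 endogenous, 6 and 2 donor-derived and 0 control cells. With clusters 7 and 12 set apart the difference was -2.26 (adjusted p = 0.00642), and cluster 2 alone held 38.7 and 23.8 CPM in endogenous cells and 21.0 in the control.

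Krt13, the type I partner of Krt4, had fewer counts in basal-like cells. It stood at 79.0 and 14.97 CPM in endogenous cells, 1.12 and 0.669 in donor-derived cells (11 and 8 UMIs) and 15.5 in the control (13 UMIs). Endogenous and donor-derived libraries did not overlap, and the day 40 endogenous library was the highest. The control lay next to the day 56 endogenous library. The log2 fold change of -5.73 ± 1.15 missed the threshold (adjusted p = 0.0773), but passed with DESeq2 (-5.71, adjusted p = 2.56e-05), with the recipient as a block (-5.55, adjusted p = 0.00383) and without either endogenous library (-4.09 without day 40, -6.46 without day 56, adjusted p = 0.0161 and 0.0062). Cluster 12 held 284.4 and 36.4 CPM of Krt13, and donor-derived cluster 7 held 2.15 and 1.25.

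Krt6a, the type II keratin known from wounds, was at 26.3 and 76.3 CPM in endogenous basal-like cells and 31.7 and 5.61 in donor-derived cells. The control held 0 UMIs, which allows up to 3.57 CPM. The groups overlapped and the log2 fold change was -1.48 ± 1.05 (adjusted p = 0.574). All 130 and 326 endogenous basal-like Krt6a UMIs lay in cluster 12. Of the 311 and 67 donor-derived UMIs, 301 and 62 lay in cluster 7 and 5 and 4 in cluster 8. Clusters 12 and 7 thus held 110 and 194.6 CPM in endogenous and 215.7 and 19.4 CPM in donor-derived cells. These are the basal-like clusters whose second-highest score was hillock, and both listed Sfn and Tnfrsf12a among their 10 leading genes.

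The luminal keratins were present in basal-like cells at similar levels in both origins. Krt8, type II, stood at 565.2 and 643.4 CPM in endogenous cells, 570.0 and 491.5 in donor-derived cells and 359.1 in the control. Its type I partner Krt18 stood at 495.8 and 462.1, 479.9 and 448.8, and 258.0. Krt19, a type I keratin without a fixed partner, stood at 1587 and 1376, 1383 and 1036, and 1354. None of the 3 passed by edgeR or DESeq2 (log2 fold changes -0.19 ± 0.15, -0.05 ± 0.13 and -0.30 ± 0.17, adjusted p = 0.568, 0.896 and 0.433), and none had an unadjusted p below 0.05. The control was the lowest library for Krt8 and Krt18. Within the class the level varied with the cluster. Krt8 was at 231.7 and 276.2 CPM in cluster 0 and at 1390 and 943.7 in cluster 7 of the donor-derived libraries, and at 268.9 and 262.5 in cluster 2 and 1510 and 1246 in cluster 12 of the endogenous ones. All 76 control basal-like cells lay in cluster 2, where Krt8 was at 372.7 CPM in the control, above the endogenous cells. Krt18 in cluster 2 was at 267.8 CPM in the control, below the 399.9 and 323.2 of endogenous cells.

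**Figure D4:**
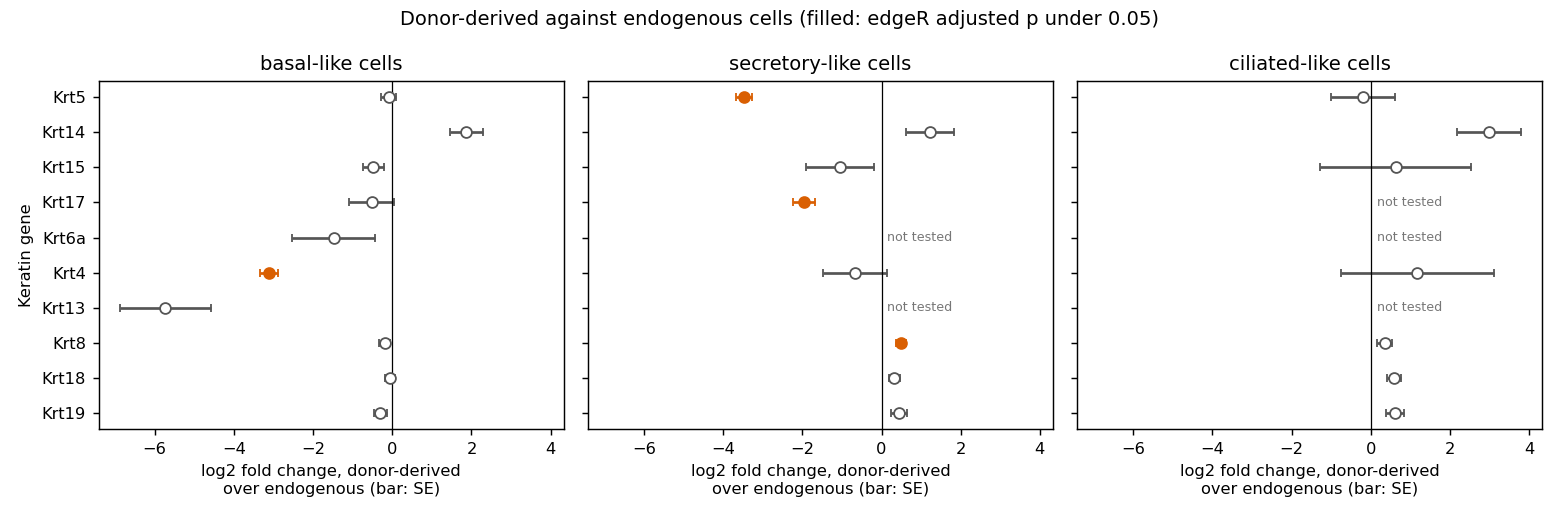
Log2 fold change of each keratin, donor-derived over endogenous (2 against 2 libraries), with its SE, in the 3 classes tested. Filled points passed at an adjusted p under 0.05: Krt4 in basal-like cells and Krt5, Krt17 and Krt8 in secretory-like cells. The Krt5 and Krt17 points of secretory-like cells turn to 0.11 and 0.79 when cluster 9 is set apart.

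In secretory-like cells 3 of the 8 keratins tested passed, against 15.6% of the 10802 genes tested, of which 6.89% were higher and 8.76% lower. Krt5 and Krt17 were lower and Krt8 was higher in donor-derived cells. Krt5 stood at 204.4 and 141.7 CPM in endogenous cells, 15.1 and 15.9 in donor-derived cells and 196.9 in the control. Both donor-derived libraries were far below the other 3. The difference was -3.47 ± 0.20 on the log2 scale (adjusted p = 2.24e-06). Krt17 stood at 17.7 and 18.2, 3.78 and 5.11, and 21.8 CPM, with the same separation (-1.964 ± 0.28, adjusted p = 0.000382).

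Both differences rested on 1 cluster. Cluster 9, led by Fmo6, Sult1d1, Aqp3 and Cldn10, held 102 of the 349 and 53 of the 233 endogenous and 103 of the 362 control secretory-like cells, and 2 of the 247 and 1 of the 397 donor-derived ones. Krt5 was at 645.4 and 662.8 CPM in its endogenous cells and 606.8 in its control cells. It was present in 58.6%, 60.4% and 54.4% of those cells, and Krt14 in 2.02%, 0% (0 of 53, which allows up to 5.66%) and 0% (0 of 103, up to 2.91%). In secretory-like cluster 1 Krt5 was at 20.7 and 8.03 CPM in endogenous cells and 32.3 in the control, and in donor-derived cluster 3 at 15.1 and 16.5. With cluster 9 set apart, the log2 fold changes became 0.11 for Krt5 (adjusted p = 0.906) and 0.79 for Krt17 (adjusted p = 0.325). At Leiden resolution 0.5, where 92.3% of the cells of cluster 9 joined the basal-like class, they were 0.44 and 3.45 (adjusted p = 0.372 and 0.364). With keratins kept in the clustering, 98.5% of those cells fell in an unnamed epithelial class, and the values were 0.79 and 0.57 (adjusted p = 0.74 and 0.466). What the data show is thus a group of endogenous and control cells with secretory markers, the basal marker Aqp3 and Krt5. The donor-derived libraries nearly lacked it under this clustering. Clusters here split by origin, so this count is not a test of cell numbers.

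The luminal keratins of secretory-like cells differed less. Krt8 stood at 857.9 and 738.6 CPM in endogenous cells, 1044 and 1194 in donor-derived cells and 1042 in the control. The donor-derived libraries were both higher than the endogenous ones, by 0.49 ± 0.13 on the log2 scale (adjusted p = 0.0262). This call was lost without either endogenous library (adjusted p = 0.0952 without day 40, 0.356 without day 56), without the donor-derived library of day 56 (0.0523) and with stricter cell filters (0.058). Krt18 stood at 808.6 and 656.1, 971.8 and 863.2, and 668.6 CPM (0.33 ± 0.14, adjusted p = 0.157). Krt19 stood at 2037 and 1559, 2889 and 2018, and 1995 CPM (0.45 ± 0.20, adjusted p = 0.215, or 0.0424 with the recipient as a block).

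Krt15, a basal keratin by name, was also the most counted keratin of endogenous and control secretory-like cells. It stood at 4034 and 1806 CPM in endogenous cells, 2063 and 775.7 in donor-derived cells and 3803 in the control. Each donor-derived library lay below the endogenous library of its recipient, and both day 56 libraries lay below the day 40 libraries of the same group. The log2 fold change was -1.04 ± 0.86 (adjusted p = 0.608). Blocking on the recipient gave -1.09 ± 0.14 (adjusted p = 0.000122). Krt14 was scarce, with 39 and 7 UMIs in endogenous cells, 50 and 52 in donor-derived cells and 1 in the control (1.22 ± 0.61, adjusted p = 0.303). It passed with the block (1.38, adjusted p = 0.0118), without the endogenous library of day 40 (2.68, adjusted p = 0.00121) and with cluster 9 set apart (3.44, adjusted p = 3.88e-05). Krt4 stood at 116.5 and 36.5, 59.5 and 39.5, and 75.7 CPM, and its groups overlapped (-0.66 ± 0.81, adjusted p = 0.732). It passed without the endogenous library of day 56 (-1.25, adjusted p = 0.0024). Krt6a was at 0 UMIs in all 5 libraries. Krt13 was at 0 UMIs in both donor-derived libraries, at 73 and 2 in the endogenous ones and at 24 in the control. Neither was tested.

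In ciliated-like cells the luminal keratins made up most of the keratin counts, and 0 of the 7 keratins tested passed by edgeR or by DESeq2 (3 had an unadjusted p below 0.05), against 3.85% of the 10513 genes tested, 1.92% higher and 1.93% lower. Krt8 stood at 929.8 and 1070 CPM in endogenous cells, 1209 and 1244 in donor-derived cells and 1110 in the control. Krt18 stood at 381.1 and 417.0, 604.1 and 545.8, and 540.7 (0.58 ± 0.18, adjusted p = 0.121), and Krt19 at 847.0 and 876.6, 1517 and 1039, and 801.6 (0.62 ± 0.23, adjusted p = 0.173). For these 3 genes both donor-derived libraries lay above both endogenous ones. The same held for Krt14 at few counts, with 13 and 8 UMIs in donor-derived and 1 and 6 in endogenous cells. Its levels were 14.4 and 4.90 CPM against 0.320 and 1.81 (2.99 ± 0.82, adjusted p = 0.0927). How many of all genes did so was not counted, so this order is only a description. The class held 41 donor-derived cells at day 40. Leaving out that library gave 4 calls, with Krt18 at 0.48 (adjusted p = 0.00198), Krt8 at 0.35 (0.0455), Krt5 at -2.44 (0.0306) and Krt4 at -7.14 (0.00624), since the other donor-derived library had 0 Krt4 UMIs. Leaving out the donor-derived library of day 56 also gave 4 calls, with Krt4 in the opposite direction. They were Krt14 at 3.73 (adjusted p = 0.000567), Krt4 at 2.49 (3.07e-05), Krt18 at 0.66 (3.35e-05) and Krt19 at 0.88 (7.36e-08). Krt15 stood at 227.0 and 121.0 CPM in endogenous, 513.2 and 16.5 in donor-derived and 237.9 in control ciliated-like cells.

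Whether a keratin's difference between origins depended on the class was tested as a class-by-group term over basal-like and secretory-like cells. It passed for 2 of the 10 keratins, against 2.79% of the 11807 genes tested. For Krt5 the difference was higher in basal-like than in secretory-like cells by 3.31 ± 0.18 on the log2 scale (adjusted p = 1.42e-05), and with cluster 9 set apart this became -0.30 (adjusted p = 0.84). For Krt19 it was lower in basal-like cells by -0.76 ± 0.11 (adjusted p = 0.00473), and -0.80 with cluster 9 set apart (adjusted p = 0.00511). For Krt4 the term was -2.57 ± 0.45 and missed the threshold (adjusted p = 0.0767), but it passed with cluster 9 set apart (-2.83, adjusted p = 0.0224). The Krt19 call was lost without the endogenous library of day 40 (-0.86, adjusted p = 0.105) and without that of day 56 (-0.63, adjusted p = 0.243).

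The comparison with the uninjured control has 1 library on 1 side and no test. It counts genes that differ from the control 2-fold or more in each recipient, over genes with a mean of at least 20 CPM, with a control or group value under 3 counts set to 3 counts. Both groups share the control. In endogenous basal-like cells Krt14, Krt6a and Krt4 were above the control by this rule (3 of 10, against 2.96% of 5845 genes). The mix of clusters differs between these libraries. Endogenous basal-like Krt6a lay in cluster 12, which held no control cells, and in cluster 2 it had 0 UMIs in endogenous and control cells. In cluster 2 Krt4 was at 38.7 and 23.8 CPM in endogenous cells and 21.0 in the control, and Krt14 at 303 and 527 against 13.57. In donor-derived basal-like cells Krt14 was above the control (1 of 10, against 5.77%) and Krt13 below it (1 of 10, against 3.13%). The mean of 20 CPM is taken over the compared libraries too. Krt6a, with 0 control UMIs, met it through the recipient libraries, and Krt13 stood above 20 CPM only in the endogenous library of day 40. In donor-derived secretory-like cells Krt5 was below the control (1 of 6, against 3.35% of 4298 genes). In endogenous secretory-like cells 0 of 6 were above it (against 1.47%) and 0 below it (against 0.0698%), and in donor-derived ones 0 were above it (against 4.56%). In ciliated-like cells 0 of 4 were past it, where 1.4% of 6345 genes were above and 0.236% below in endogenous cells and 2.49% and 2.27% in donor-derived cells. In endogenous basal-like cells 0 of 10 were below it (against 0.222%).

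A donor-derived cluster that received no class name, cluster 4 (406 and 68 cells, led by Cldn18, Upk3a and Clu), was the richest in luminal keratins. Krt19 stood there at 4489 and 3912 CPM, Krt8 at 2421 and 2361 and Krt18 at 2166 and 1785. Each is above the highest secretory-like or ciliated-like library of the same gene. Krt15 was at 2856 and 2142 CPM, Krt5 at 23.3 and 37.5, Krt4 at 119.9 and 90.0, and Krt13 at 17.0 and 0. Hillock markers gave its highest score, with 8 of 14 markers detected, but it did not meet the naming rule. Microfold-like cells, cells that sample antigens, were mostly donor-derived (214 and 26 cells, against 9 and 8 endogenous cells, too few for a level). The donor-derived ones held Krt14 at 237.3 and 96.5 CPM beside Krt8 at 1390 and 1215 and Krt19 at 2129 and 1782. Tuft-like cells, chemosensory cells of the airway, were measured in the endogenous libraries (29 and 21 cells). They held Krt8 at 1271 and 1257 CPM and Krt18 at 1260 and 1241, with 0 UMIs of Krt5, Krt14, Krt17, Krt6a, Krt4 and Krt13. Proliferating-like cells of day 40 held Krt14 at 179.3 CPM in 22 endogenous and 2665 in 43 donor-derived cells, and Krt17 at 220.1 and 1394.

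The 10 keratins took 1.22% and 0.990% of all UMIs in endogenous, 1.36% and 0.894% in donor-derived and 1.18% in control basal-like cells. In secretory-like cells they took 0.314% to 0.556% and in ciliated-like cells 0.241% to 0.4305%. In basal-like cells Krt14 made up 24.5% and 19.8% of the keratin UMIs in the donor-derived libraries, 4.06% and 7.93% in the endogenous libraries, and 0.129% in that of the control trachea. Krt15 made up 36.6% and 38.6%, 54.0% and 42.6%, and 61.1%. Together Krt5, Krt14, Krt15 and Krt17 made up 73.0% to 80.3% in the 5 libraries, a range in which the origins overlapped. Among the 10 keratins, the ratio of type I to type II UMIs was 4.16 and 3.47 in endogenous basal-like cells. In donor-derived cells it was 4.50 and 3.87, and in the control 4.17. It leaves out type II Krt7, with 3195 and 2205 UMIs in endogenous, 8117 and 6735 in donor-derived and 484 in control cells. Shares of 1 pool are not independent, since a higher Krt14 share lowers the others, and the CPM of Krt15 overlapped between origins. Krt5 made up 13.2% to 15.6% in the 5 libraries. In secretory-like cells Krt15 made up 49.8% and 36.4% of the pool in endogenous, 29.2% and 15.8% in donor-derived and 48.7% in control cells. In ciliated-like cells Krt8, Krt18 and Krt19 made up 85.3% to 99.1%.

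**Figure D5:**
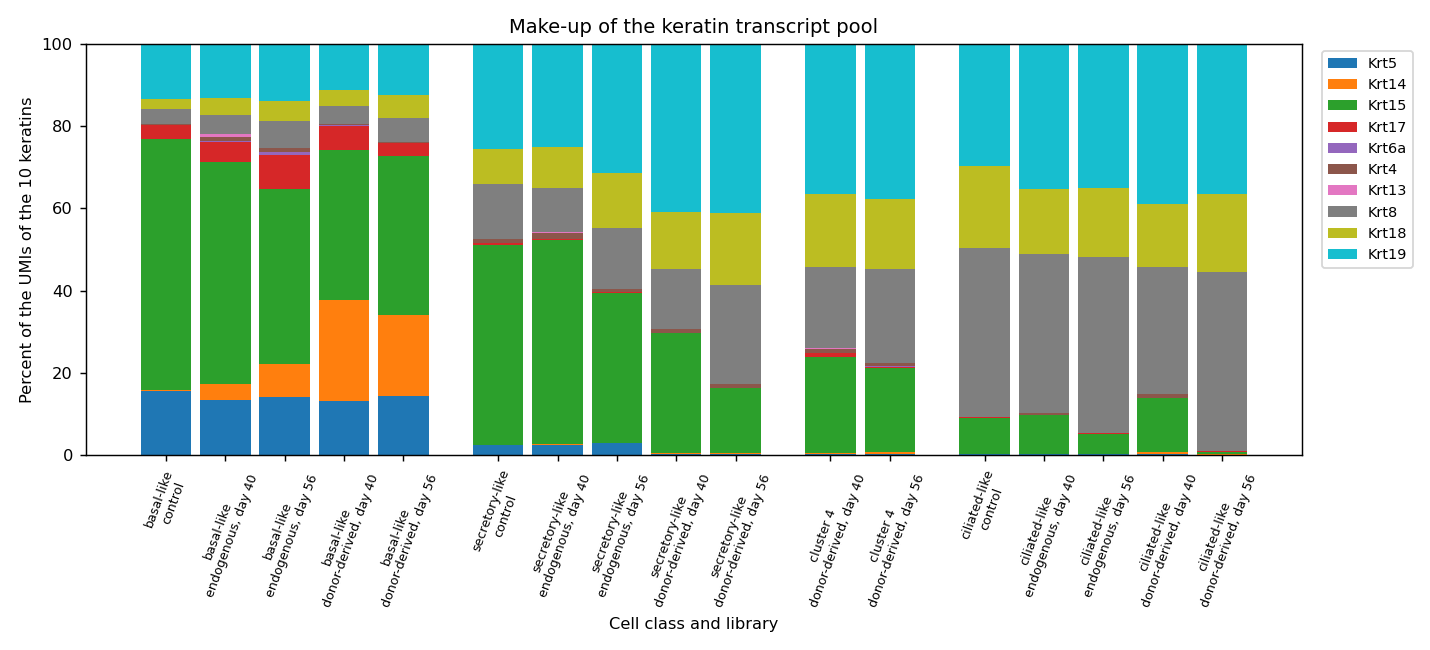
Share of each keratin in the summed UMIs of the 10 keratins, by class and library, stacked to 100%. Krt14 takes 24.5% and 19.8% in donor-derived basal-like cells and 0.129% in the control.

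Within single basal-like cells most cells with Krt14 also had Krt5. Krt5 was found in 96.0% and 95.5% of donor-derived cells with Krt14, and in 99.0% and 96.2% of such endogenous cells. Since Krt5 was present in at least 87.5% of all basal-like cells of every library, these shares do not measure a link between the genes. Cells with Krt5 and without Krt14 made up 67.5% and 49.7% of the endogenous basal-like cells, 13.2% and 29.5% of the donor-derived and 96.1% of the control ones. Across basal-like cells of 1 library, the Spearman correlation of Krt14 with Krt17 was 0.56 and 0.54 in donor-derived and 0.39 and 0.59 in endogenous cells. These cells share a library and its depth, and the correlations are descriptions with no p.

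Basal and luminal keratins were also found in the same cell. In basal-like cells both Krt5 and Krt8 were present in 34.2% (day 40) and 42.6% (day 56) of the endogenous, 48.7% and 43.8% of the donor-derived and 38.2% of the control libraries' cells. The endogenous library of day 40 was the lowest and the donor-derived library of day 40 the highest. In immune-like cells of the endogenous libraries, which should lack keratins, each keratin was present in at most 1.33% of cells, at a median of 7708 and 7580 UMIs per cell against 8564 to 11540 in basal-like cells. In secretory-like cells Krt5 and Krt8 were both present in 12.5% and 9.87% of endogenous and 11.05% of control cells, and in 0.837% and 0.777% of donor-derived cells. Beside this, both were present in 1.08% of 93 and 0% of 225 thinned immune-like cells of the endogenous libraries. Each donor-derived library held 1 immune-like cell, so its own background was not measured. Among basal-like clusters the highest share was in cluster 7, where 86.7% and 67.1% of donor-derived cells had both. Next were cluster 12, with 56.2% and 59.3% of endogenous cells, and cluster 8, with 53.0% and 58.2% of donor-derived cells. In proliferating-like cells of day 40 it was 71.4% of 21 endogenous and 44.2% of 43 donor-derived cells. In cluster 12 both genes had a Spearman correlation of -0.40 and -0.32, while Krt5 and Krt14 had one of 0.65 and 0.70. In cluster 4 Krt8 and Krt18 were both present in 92.5% and 91.0% of cells, with a Spearman correlation of 0.75 and 0.68.

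Krt4 and Krt13, known together from hillock cells, were rarely seen in 1 basal-like cell at this depth. Both were present in 8 of 421 and 2 of 336 endogenous basal-like cells, and in 0 of 721 and 0 of 1068 donor-derived ones, which allows up to 0.416% and 0.281%. In cluster 12 they were both present in 10.0% and 1.85% of cells, while Krt4 was present in 33.8% and 18.5% and Krt13 in 18.8% and 5.56%. Krt5 and Krt4 were both present in 17.5% and 11.1% of its cells, with a Spearman correlation of -0.38 and -0.24. Outside the basal-like class, donor-derived cluster 4 held 721 and 108 Krt4 UMIs and 102 and 0 Krt13 UMIs (day 40 and day 56). Its share of cells with both is not given here.

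The genes whose levels were most like each keratin's were found over 28 class-by-library sums and 2629 genes by Pearson's r of log2(CPM + 2). The sums share libraries and cell classes, so r is a description. Trp63, Dapl1, Aqp3, Lamb3 and Sfn were among the basal markers that named the classes, and Mal among the hillock markers. Their likeness to a keratin is therefore partly built into the classes and is no independent support. Krt5 was followed most closely by Trp63, the transcription factor of basal cells (r = 0.94), Dapl1 (0.94) and the water channel Aqp3 (0.93). Krt14 was most like Lamb3, a laminin chain (0.79), Clca3a2 and Bcl10 (0.79 each), Krt17 like Lamb3 (0.91) and Bcam (0.86), and Krt15 like Sfn (0.92) and the water channel Aqp5 (0.89). Krt4 was most like Mal (0.90) and Gabrp (0.85), Krt13 like Aqp3 (0.67) and Krt6a like Ppp2r2a (0.69). Krt8 was most like the tight-junction gene Cldn7 (0.99), Krt18 like the epithelial transcription factor Ehf (0.96) and Krt19 like Rab25 (0.96). Among the members themselves, Krt8, Krt18 and Krt19 had r of 0.95 to 0.97 with each other, and Krt5 had 0.90 with Krt17, 0.86 with Krt15 and 0.13 with Krt8.

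Of 24 listed regulators of keratin genes, 22 were tested in basal-like cells, where 2 rose and 4 fell in donor-derived cells, against 2.98% and 6.12% of all genes tested. The median log2 fold change of the list was -0.20, beside 0.00 over all genes. Foxq1, a forkhead factor, rose from 23.1 and 40.2 CPM to 155.5 and 211.4 (2.53 ± 0.32, adjusted p = 0.0119), and Tfap2a, an AP-2 factor of the epidermis, rose by 0.91. Elf3, an epithelial ETS factor, fell by 1.58, Sox2 by 1.05 and Klf5 by 0.84. Trp63 fell by 0.72 ± 0.15, from 330.0 and 312.8 CPM to 176.8 and 214.9 (adjusted p = 0.0305), with the control at 349.6. The Trp63 and Krt5 differences were not tested against each other.

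In secretory-like cells 2 of 20 tested regulators rose and 8 fell, against 6.89% and 8.76% of all genes, with a list median of -0.05 beside -0.01 over all genes. Foxq1 rose by 2.87 and the homeobox gene Pitx1 by 1.41. Trp63 fell by 3.16, from 30.7 and 22.7 CPM to 3.78 and 2.45, Klf4 by 2.06, Notch3 by 0.96 and Runx1 by 0.78. The class includes cluster 9, on which the Krt5 and Krt17 differences rested. Its part in these changes is not given here. In ciliated-like cells 2 of 17 rose, Foxq1 by 5.16 and Jun by 0.96, and 0 fell, against 1.92% and 1.93% of all genes. Of the 21 plakins and other intermediate filament genes, 18 were tested in basal-like cells and 1 fell, the cornified envelope plakin Evpl, by 0.94 (adjusted p = 0.0444, list median -0.06, against 2.98% of all genes higher and 6.12% lower). In secretory-like cells, again with cluster 9 included, Evpl rose by 1.02 and Ppl, its plakin partner, by 0.73. Dst, the plakin of hemidesmosomes, fell there by 1.22 (16 tested, list median 0.14, against 6.89% higher and 8.76% lower). In ciliated-like cells Vim, the filament of mesenchymal cells, fell by 2.67 (17 tested, list median 0.15, against 1.92% higher and 1.93% lower).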

How the data were processed

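Live cells of 5 tracheal libraries were measured by 10x Chromium single-cell RNA sequencing. The deposited values are raw UMI counts per feature and barcode over a joint mouse and human reference. Tools listed in the submitters' processing notes are STARsolo, Cell Ranger and Seurat, with GRCh38 and GRCm38 as builds. Which of them made the count matrices is not said. Counts are UMIs, so intervals and floors (3 counts) cover counting error only. The keratins and the gene lists were chosen with earlier results of these data known.

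From 6832 barcodes, 192 with over 10% human-mapped UMIs, 38 with under 500 genes or over 20% mitochondrial UMIs and 48 doublet calls (0.727%) were removed, leaving 7396581 to 25354119 mouse UMIs a library. Cells were clustered with scanpy 1.11.5 and leidenalg 0.10.2 (2000 variable genes, 30 components, 15 neighbours, resolution 1.0, seed 1) without keratin genes. A cluster took the class with the highest mean standardised marker score if at least 3 markers were detected, no other class had more markers among its top 10 genes, and 1 marker stood among those 10 or 80% of the markers were detected. This rule was chosen after seeing the data, and class names are rebuilt, not the authors'. Counts were summed per class and library with at least 20 cells and tested by the quasi-likelihood test of edgeR 4.0.16 (R 4.3.3), 2 donor-derived against 2 endogenous libraries, with TMM scaling, Benjamini-Hochberg adjustment over all genes and a threshold of 0.05. The SE is the log2 fold change over the square root of F, an approximation. The class-by-group term was fitted with each library as a fixed effect. DESeq2 1.42.0 was an alternative.

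The 2 sorted fractions of a day share a recipient, which pairs their libraries. Their deviations from the group means correlated at 0.24 in basal-like, 0.148 in secretory-like and -0.0373 in ciliated-like cells. On simulated counts for the basal-like comparison (11611 genes) the test recovered 88 of 99 genes changed 2-fold and 101 of 101 changed 4-fold. It made 12 false calls. The simulation gave every gene the same hand-set dispersion and changed only genes of at least 20 CPM. It held no recipient or day effect, so these numbers do not measure the power in the real libraries. Named genes are the 10 keratins, other keratins with a mean of at least 20 CPM in a class, up to 4 called genes per list, class and direction by size of change, and the 3 genes of at least 50 CPM most like each keratin, of which some are printed. Cluster-leading genes were named after their values were seen. Alternatives covered the test, scaling, filters, block, left-out libraries, clustering, thinning and doublets. Coordinates are those of the GRCm38 annotation.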

Additional observations from a re-analysis of the deposited data

Results flagged for a closer look

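Krt5 and Krt19 had a difference between donor-derived and endogenous cells that itself differed between basal-like and secretory-like cells. For Krt5 the difference between the classes was 3.31 on the log2 scale (adjusted p = 1.42e-05 by edgeR), from -0.09 in basal-like and -3.47 in secretory-like cells. It was -0.30 with secretory-like cluster 9 set apart. For Krt19 it was -0.761 (adjusted p = 0.00473), from -0.30 in basal-like and 0.45 in secretory-like cells. All groups held fewer than 4 libraries, so no library could be tested as standing apart from its group.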

How the results depend on the processing

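Fold changes recomputed under the alternatives counted as the same if they stayed on their side of the threshold. A change of direction counted as a reversal only where the main or the recomputed value passed. By this rule 131 of 138 in basal-like, 92 of 112 in secretory-like and 82 of 91 in ciliated-like cells were the same. In this order 7, 10 and 8 passed newly. In secretory-like cells 4 were lost, and 6 and 1 reversed in secretory-like and ciliated-like cells. Krt15 in ciliated-like cells, at 0.63 and at -0.51 with the recipient as a block, thus counted as the same. Krt5 and Krt17 in secretory-like cells turned to 0.435 and 3.45 at resolution 0.5, to 0.788 and 0.572 with keratins kept, and to 0.110 and 0.787 with cluster 9 set apart. The Krt5 class difference turned to -0.520, -1.125 and -0.296 under the same 3 settings. Setting clusters apart, and these 3 settings for the class difference, were chosen after seeing the data. Krt4 in ciliated-like cells ranged from -7.144 to 2.49 when 1 library was left out. Apart from the cluster 9 cells, the cause of these changes was not tested.

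Basal-like calls among the keratins were 1, with 3 by DESeq2, 2 with the replicate block and 2 to 2 when each library was left out. Calls over all genes were 1713 with no filter, and 288 to 1468 when each library was left out (288 and 339 without the endogenous library of day 40 and of day 56). Secretory-like keratin calls were 3, with 5 without a filter, 6 with the replicate block, 1 at resolution 0.5, 1 with keratins kept and 3 to 4 leaving out a library (1140 to 1919 over all genes). Ciliated-like keratin calls were 0, with 1 without a filter and 0 to 4 leaving out a library. Over all genes they were 405, with 791 without a filter and 50 to 2110 leaving out a library (50 and 80 without the endogenous library of day 40 and of day 56, 2110 and 1354 without the donor-derived library of day 40 and of day 56). Keratins with a class difference were 2, with 5 at resolution 0.5 and 2 to 4 leaving out a library. Where 1 library is left in a group it is assumed to vary like the other group. Among the 10 keratins the block changed the calls of Krt13 in basal-like and of Krt14, Krt15 and Krt19 in secretory-like cells and no other.

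Scaling by library totals changed no keratin call in the 3 classes but moved the median of all genes to 0.1215 (basal-like), 0.1612 (secretory-like) and 0.1037 (ciliated-like), and the share of calls that were higher from 32.7% to 43.0%, 44.0% to 59.9% and 49.9% to 62.5%. The share of basal-like cells with both Krt5 and Krt8 followed the depth and the UMIs asked for. In the endogenous libraries (day 40, day 56), the donor-derived libraries and the control it was 65.1%, 68.8%, 75.5%, 74.0% and 78.9% at 1 UMI, 7.6%, 10.1%, 13.3%, 8.61% and 11.8% at 5 UMIs, 21.6%, 23.2%, 28.8%, 25.1% and 25.0% when thinned to 3000 UMIs, and 60.8%, 67.6%, 77.1%, 68.1% and 65.8% without thinning.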

Other observations

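Of the keratins outside the 10, Krt7, a type II keratin of simple epithelia, was the most counted. In secretory-like cells it stood at 367.0 and 269.9 CPM in endogenous, 581.0 and 514.1 in donor-derived and 469.5 in control cells, and it rose by 0.78 ± 0.16 on the log2 scale (adjusted p = 0.00591 by edgeR). The donor-derived libraries stood above the other 3. In unnamed donor-derived cluster 4 it reached 979.9 and 870.6 CPM.

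Krt20, a type I keratin known from the gut and bladder lining, was found mainly in donor-derived microfold-like cells, at 248.4 and 195.3 CPM, and in cluster 4 at 55.0 and 40.8 CPM. Krt23, a type I keratin, stood at 97.7 and 119.0 CPM in endogenous, 44.4 and 34.1 in donor-derived and 119.6 in control secretory-like cells, and fell by 1.47 ± 0.17 (adjusted p = 9.15e-05). In basal-like cells Krt23 was at 24.3 and 67.4 CPM in the endogenous libraries, 0.814 and 1.17 in the donor-derived ones and 3.57 (3 UMIs) in the control, and fell by 5.49 ± 0.71 (adjusted p = 0.0193). Krt80 was at 17.7 to 33.6 CPM in ciliated-like cells, where its difference missed the threshold (-0.71 ± 0.23, adjusted p = 0.133). In basal-like cells its difference of -1.99 ± 0.53 missed the threshold too (adjusted p = 0.0785), but passed with the recipient as a block (-1.99, adjusted p = 0.0263). Krt222, a keratin-like gene, was at 46.8 CPM (12 UMIs) in tuft-like cells of the endogenous library of day 40.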
